A study of Mus musculus with 12 samples.

Results

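The 29 genes described here encode the enzymes of cholesterol synthesis, the proteins that control the transcription factor SREBP2, and proteins of sterol transport, receptor turnover and efflux. They were listed by symbol by their known functions, with earlier results of these data known, and all 29 were found among the 55450 genes of the deposited table. RNA sequencing was performed on mouse type II alveolar epithelial (AT2) cells, in 4 groups of 3 libraries, to ask how the aryl hydrocarbon receptor (AhR) shapes the epithelial response to cockroach extract (CRE). Both genotypes carried floxed AhR alleles: AhR f/f mice had no Cre recombinase and served as controls, and Sftpc-Cre;AhR f/f mice expressed Cre from the surfactant protein C (Sftpc) locus. Mice were 6 to 8 weeks old. AT2 cells from each genotype were cultured on collagen I and received either PBS or CRE at 50 µg/ml for 24 h. Cells in a culture that never expressed Sftpc keep AhR, so the Sftpc-Cre;AhR f/f libraries can hold a mixture. Cells of these genotypes are called control and knockout cells. The labels number the libraries 1 to 3 in each group without saying which animals they came from, and p-values therefore measure the spread between libraries. Total counts ran from 68878065 to 80935797 per library, and all 29 genes were among the 20612 tested after the filter on low counts. The smallest count of any of these genes in a library was 215, for Abcg1. Genes of the pathway outside the lists named in the text were not analysed here.

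Cholesterol is made from acetyl-CoA by way of mevalonate, farnesyl diphosphate, squalene and lanosterol. When membranes of the endoplasmic reticulum run low in sterol, SCAP escorts SREBP2 to the Golgi for cleavage and the released factor raises transcription of the synthesis enzymes, whereas INSIG proteins retain the complex when sterol is plentiful and LXR receptors, activated by oxysterols, raise the efflux transporters. AT2 cells place cholesterol in lamellar bodies together with surfactant phospholipid, and the same lipid is returned through endosomes and lysosomes when surfactant is taken up again.

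The genotype labels were checked first. Ahr mRNA, in counts scaled to a common library size by TMM (CPM), was 42.9, 43.8 and 45.1 in control cells with PBS, 56.2, 50.5 and 50.1 in control cells with CRE, 49.6, 40.2 and 45.7 in knockout cells with PBS and 51.5, 37.7 and 49.5 in knockout cells with CRE. These values overlapped between genotypes, but a count over the whole gene does not read out a deleted exon, so it checks nothing by itself. Direct AhR targets did separate the genotypes. Cyp1b1, a monooxygenase induced through AhR, stood at 344, 404 and 404 CPM in control cells with PBS against 59.0, 31.7 and 43.3 CPM in knockout cells with PBS, a log2 fold change of -3.10 (SE 0.27) and an edgeR adjusted p of 8.8e-04. Nqo1, a quinone reductase, had a log2 fold change of -1.33 (SE 0.13) with PBS (edgeR adjusted p 0.00163), and Tiparp one of -0.98 (edgeR adjusted p 0.0414). Cyp1a1 and the AhR repressor Ahrr had values of -1.67 and -1.49 with PBS and -1.38 and -2.38 with CRE without overlap of the groups, but neither passed the unpaired test within a treatment (edgeR adjusted p 0.193 and 0.395 with PBS and 0.455 and 0.137 with CRE). Over both treatments, where libraries of the same number count as independent, both passed it (edgeR adjusted p 0.0324 and 0.0246). In an alternative fit that matched libraries by number across genotypes, Cyp1a1 passed with PBS and with CRE (edgeR adjusted p 0.0026 and 0.0067), and Ahrr with CRE only (0.0163). Libraries of different genotypes were not otherwise taken as pairs, so that fit is given only as an alternative.

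Marker genes of AT2 cells and of other lung cells were both detected. The isolation removed cells bound by antibodies to CD45, CD16/32, Ter119 and Sca-1 on magnetic beads, followed by incubation on dishes with mouse IgG, steps that should deplete leukocytes. The summed level of 10 AT2 markers, of which Sftpc was the most abundant, was 8489.9, 8796 and 7827 CPM in control cells with PBS, 7519, 7573 and 6895 with CRE, 4584, 6383 and 8974 in knockout cells with PBS and 4792, 6539 and 9412 with CRE. The sum of 6 airway markers, led by Scgb1a1, lay between 4032 and 8233 CPM, and that of 8 AT1 markers, led by Emp2, between 1950.0 and 4049 CPM. Fibroblast (8 genes, led by Col1a1) and endothelial markers (8 genes, led by Pecam1) reached at most 274 and 104 CPM. The sum of 10 leukocyte markers, led by Laptm5, was 469, 89.3 and 27.9 CPM in control cells with PBS and 399, 82.5 and 25.7 CPM with CRE. The knockout libraries had 341, 79.7 and 106 CPM with PBS and 318, 75.6 and 95.4 CPM with CRE. The libraries numbered 1 were thus the highest in every group, and the 10 alveolar macrophage markers, led by Cd68, were also highest there (214 CPM in control cells with PBS, against 66.9 and 51.8 CPM). Among the 60 markers of these lists only Siglecf was at 0, in the CRE libraries of control cells numbered 1 and 2. With CRE, 6 of the 7 marker sums were lower in all 6 same-number pairs of CRE and PBS libraries (for AT1 markers by a ratio of 0.706 to 0.761), while the AT2 sum was lower in 3 of 3 pairs of control cells and higher in 3 of 3 pairs of knockout cells. Fewer cells of a type and less RNA per cell cannot be told apart in such bulk libraries, and the part of these markers in the sterol results was not tested beyond leaving out the libraries numbered 1.

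Compared per length, with the deposited FPKM, the levels of the 29 genes spanned a wide range. Npc2, the soluble lysosomal sterol carrier, had the highest median over the 12 libraries, 199 FPKM, and the lowest and highest library were 169.8 and 220.2 FPKM. Its level exceeded every other gene of the list in all libraries. The next were Hmgcs1 (48.5 FPKM), Idi1 (41.8 FPKM), Cyp51 (40.9 FPKM) and Fdft1 (39.1 FPKM), whose ranges over the libraries overlapped, then Fdps (30.6 FPKM), Insig1 (29.6 FPKM) and Sqle (25.8 FPKM). At the other end stood the efflux transporters Abcg1 (0.466 FPKM, 0.348 to 1.69) and Abca1 (1.07 FPKM), and the C14 sterol reductase Tm7sf2 (0.991 FPKM). For comparison, the median gene tested had 2.04 FPKM, and 26 of the 29 genes lay above it. Spread over the libraries differed as well: on the CPM scale the highest library was 1.18 times the lowest for Scap, 2.13 times for Fdft1 and 4.68 times for Abcg1.

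CRE left most of the pathway within the spread between libraries, and the clearest difference was in the lysosomal sterol exporter Npc1, which was lower with CRE in every pair of libraries of both genotypes. By edgeR's quasi-likelihood test over all genes, none of the 29 passed an adjusted p of 0.05 for CRE against PBS in control cells (48 genes, 0.233% of all), in knockout cells (54 genes, 0.262%) or over both genotypes (226 genes, 1.10%). At an unadjusted p under 0.05 the counts were 4 of 29 in control cells (all genes, 9.36%), 1 in knockout cells (6.48%) and 4 over both genotypes (11.1%). DESeq2 called 0, 0 and 2 of the 29 (Npc1 and Mvk), against 1.98%, 1.23% and 3.59% of all genes, and limma with the same adjustment called none on the counts. None met the rule of the study, a limma p under 0.05 with an absolute log2 fold change over 0.5, which 4.11% of all genes met in control cells and 3.38% in knockout cells. Libraries that share a number within a genotype deviated together across genes, so the number was also fitted as a block. In that paired fit 3 of 29 passed in control cells (Npc1, Mvk and Ebp, all lower; all genes, 3.63%), 1 in knockout cells (Npc1; 2.13%) and 3 over both genotypes (Npc1 and Mvk lower, Idi1 higher; 6.59%). The groups did not overlap for 7 of 29 genes in control cells (all genes, 16.5%) and for 2 in knockout cells (11.8%). The median log2 fold change of the 29 was 0.00 in control cells, 0.03 in knockout cells and 0.00 over both, against 0.00 for all genes in each. In all 6 pairs Hmgcs1, Idi1 and Cyp51 were higher and Npc1, Mvk and Abcg1 lower with CRE, 6 of the 29 genes with 1 direction throughout, against 14.4% of all genes. Under scaling by library size alone Ebp was lower in all 6 pairs as well.

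**Figure D1:**
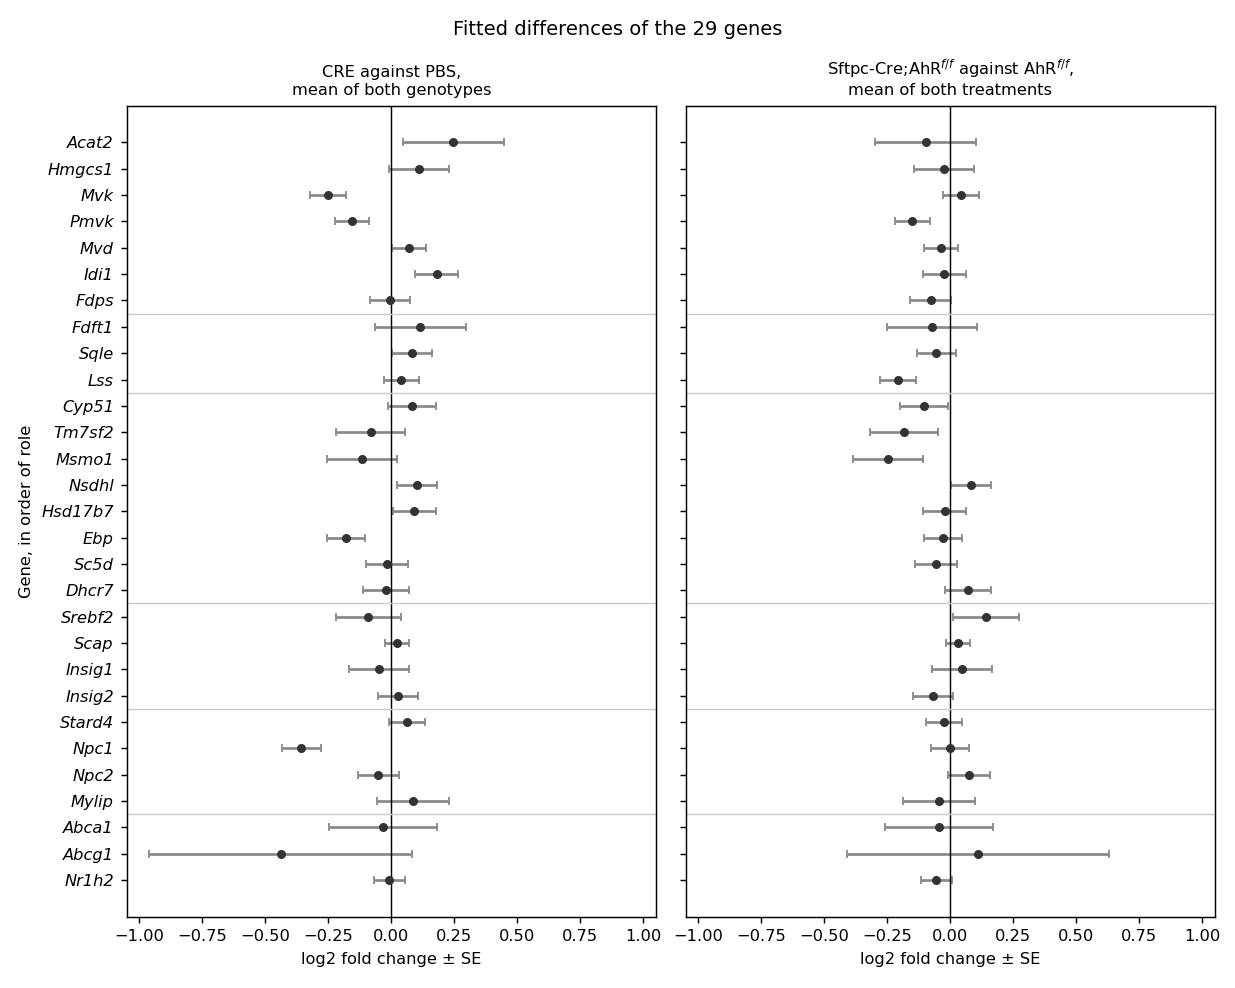
Fitted log2 fold changes (points) with their standard errors (bars) for the 29 genes in order of role, for CRE against PBS as the mean of both genotypes (left) and for the genotypes, Sftpc-Cre;AhR f/f minus AhR f/f, as the mean of both treatments (right), from 12 libraries. Npc1 at -0.36 lies farthest from 0 in units of its error on the left, and Abcg1 has the widest error.

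Transport genes are described first because they hold this difference. Npc1, which moves cholesterol out of late endosomes and lysosomes (chr18:12189692-12236400 of GRCm38, minus strand), was at 177, 223 and 200.3 CPM in control cells with PBS and 151, 160.2 and 159 CPM with CRE. Knockout cells were at 176, 225 and 201 CPM with PBS and 145, 171 and 152 CPM with CRE. All 6 CRE libraries lay below all 6 PBS libraries, by 171 against 176 CPM at the nearest. The share of all genes separated in this way is not given here. The level followed the library number as well, with the PBS libraries numbered 2 highest in both genotypes and the libraries numbered 1 lowest in each group. The sum of the AT1 markers was likewise lower with CRE in all 6 pairs (ratio 0.706 to 0.761) and lowest in the libraries numbered 1 of each group, and its part in the Npc1 values was not tested. Group means with SD (n = 3) were 199.9 ± 23.1 and 157 ± 4.67 CPM in control cells and 200.4 ± 24.7 and 156 ± 13.7 CPM in knockout cells. The log2 fold change was -0.35 (SE 0.11) in control cells, -0.36 (SE 0.11) in knockout cells and -0.36 (SE 0.08) over both, with edgeR adjusted p of 0.315, 0.429 and 0.0600. In the paired fit the edgeR adjusted p was 0.0269, 0.0280 and 0.00379, with log2 fold changes of -0.34, -0.36 and -0.35. Across all 28 alternatives the edgeR, DESeq2 or limma adjusted p over both genotypes ran from 0.00126 to 0.161, with 15 under 0.05. Of these alternatives, 8 were planned fits of all libraries, with 5 under 0.05, and 12 left out 1 library, with 3 under 0.05. The remaining fits were chosen after seeing the data, and most were variants of the paired fit. The paired value over both genotypes stayed past the threshold with any 1 of the 6 pairs left out (edgeR adjusted p 0.00735 to 0.0276). Within 1 genotype the paired call was held in 1 of these 6 fits in control cells and in 2 in knockout cells (edgeR adjusted p up to 0.138 and 0.203). Without the libraries numbered 1, which hold the most leukocyte counts, the unpaired log2 fold change was -0.41 (SE 0.07) and its edgeR adjusted p 0.0730. Npc1 shares its 3′ end with Rmc1 on the opposite strand, and how the counting used strand is not given in the sources used here. Rmc1 had 37.9 to 52.8 CPM and a log2 fold change of 0.02 (SE 0.08) with CRE over both genotypes.

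**Figure D2:**
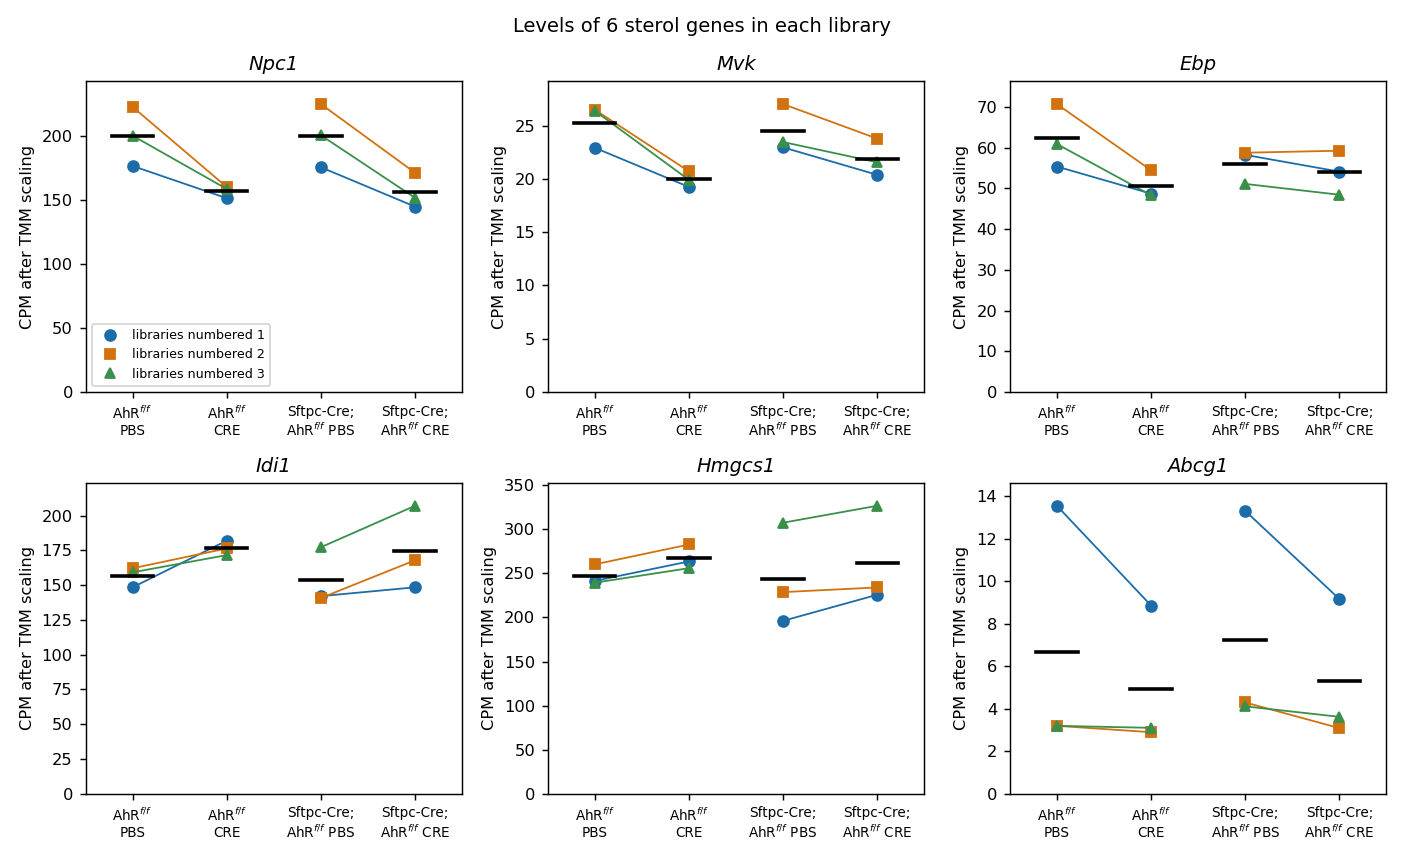
CPM after TMM scaling of Npc1, Mvk, Ebp, Idi1, Hmgcs1 and Abcg1 in each of the 12 libraries. Lines join the PBS and CRE libraries with the same number within a genotype, black bars are the means of 3 libraries, and every Npc1 line falls from left to right, while Abcg1 is highest in the 4 libraries numbered 1.

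The partner of Npc1 in the lysosome, Npc2, hands cholesterol to it. Npc2 was at 1179.8, 1294 and 1225 CPM in control cells with PBS and 1103, 1115 and 1099.7 CPM with CRE, and these groups did not overlap. In knockout cells the values were 994, 1287 and 1339 CPM with PBS and 1084, 1311 and 1365 CPM with CRE, which did overlap. Its log2 fold change with CRE was -0.16 (SE 0.12) in control cells and 0.05 (SE 0.12) in knockout cells. The sum of AT2 markers had the same signs in the same pairs, and its part in these values was not tested. Stard4, which carries sterol between membranes in the cytosol, ranged from 43.1 to 55.4 CPM, with a log2 fold change of 0.18 (SE 0.10) in control cells, where the groups did not overlap, and -0.05 (SE 0.10) in knockout cells. Mylip, the ubiquitin ligase that sends lipoprotein receptors to degradation, ranged from 21.6 to 34.1 CPM and had log2 fold changes of 0.11 and 0.06.

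In the first stretch of synthesis, Mvk, the kinase that phosphorylates mevalonate (chr5:114444269-114460591, plus strand), was at 22.9, 26.5 and 26.4 CPM in control cells with PBS and 19.2, 20.7 and 19.9 CPM with CRE. In knockout cells it was at 23.0, 27.0 and 23.5 CPM with PBS and 20.4, 23.8 and 21.6 CPM with CRE. The control groups did not overlap, the knockout groups did, and all 6 pairs were lower with CRE. The log2 fold change was -0.34 (SE 0.10), -0.16 (SE 0.10) and -0.25 (SE 0.07) in control cells, in knockout cells and over both (edgeR adjusted p 0.292, 0.907 and 0.166), and in the paired fit the edgeR adjusted p was 0.0427, 0.336 and 0.0243. With 1 pair left out, the paired value passed in 0 of 6 fits in control cells and in 1 of 6 over both genotypes, and DESeq2 called Mvk over both genotypes. Idi1, the isomerase of isopentenyl diphosphate (chr13:8885501-8892451, plus strand), was at 148, 162 and 159 CPM in control cells with PBS and 182, 176 and 172 CPM with CRE. For knockout cells the values were 142, 141 and 177 CPM with PBS and 148, 168 and 207 CPM with CRE. The control groups did not overlap and the knockout groups did, with the library numbered 3 highest in each of them. Its log2 fold change over both genotypes was 0.18 (SE 0.09), with an edgeR adjusted p of 0.483 and, in the paired fit, 0.0493. Without the knockout library with CRE numbered 3 the unpaired value was 0.11. The paired call was lost in all 6 fits with 1 pair left out (edgeR adjusted p 0.0685 to 0.165).

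The remaining genes of that stretch did not pass either fit. Hmgcs1, which condenses acetoacetyl-CoA and acetyl-CoA, had 196 to 327 CPM and a log2 fold change with CRE of 0.11 (SE 0.12) over both genotypes. Acat2, the thiolase that forms acetoacetyl-CoA, had one of 0.25 (SE 0.20) and ranged from 31.8 to 67.6 CPM. Its close copy Acat3 was counted at 0.178 to 5.34 CPM, so reads of the copies may have been split and the Acat2 value is uncertain. Pmvk, the kinase after Mvk, had log2 fold changes of -0.24 (SE 0.10) in control cells, without overlap of the groups, and -0.07 (SE 0.10) in knockout cells. Mvd, the decarboxylase that yields isopentenyl diphosphate, had -0.06 (SE 0.10) and 0.20 (SE 0.10) on the same log2 scale, and Fdps, which joins the isoprene units into farnesyl diphosphate, -0.07 and 0.06. By sign, 3 of the 7 genes had positive values in control cells and 5 of 7 in knockout cells, with medians of -0.06 and 0.10.

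Of the steps from squalene to lanosterol, Fdft1, the squalene synthase (chr14:63145150-63179578, minus strand), varied widely between libraries. It was at 226, 208 and 147 CPM in control cells with PBS and 157, 156 and 208 CPM with CRE, and at 110.4, 127 and 220.2 CPM in knockout cells with PBS and 178, 186 and 235 CPM with CRE. No group was separate from its counterpart, and in control cells the pairs numbered 1 and 2 were lower with CRE (-0.52 and -0.42 on the log2 scale) while the pair numbered 3 was higher (0.50). Log2 fold changes with CRE were -0.16 (SE 0.25) in control cells and 0.39 (SE 0.25) in knockout cells (edgeR adjusted p 0.944 and 0.923). The latter was 0.20 without the knockout library with PBS numbered 1, 0.25 without that with CRE numbered 3 and 0.75 without that with PBS numbered 3. Fdft1 lies against the lysosomal protease gene Ctsb on the opposite strand, and Ctsb was counted at 705 to 922 CPM, so the Fdft1 values are uncertain by as much as reads were shared. Sqle, the squalene epoxidase, ranged from 135 to 175 CPM with a log2 fold change of 0.08 (SE 0.08) over both genotypes, and Lss, which closes the ring to lanosterol, from 50.0 to 71.5 CPM with 0.04 (SE 0.07).

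Among the 8 enzymes between lanosterol and cholesterol, Ebp, the sterol isomerase (chrX:8185329-8193512, minus strand), was at 55.4, 70.7 and 60.9 CPM in control cells with PBS and 48.7, 54.5 and 48.3 CPM with CRE. In knockout cells it was at 58.2, 58.8 and 51.1 and 54.1, 59.3 and 48.4 CPM. The control groups did not overlap, whereas the knockout groups did and their pair numbered 2 was higher with CRE by 0.01 on the log2 scale, and lower under scaling by library size alone. The log2 fold change was -0.30 (SE 0.11) in control cells and -0.05 (SE 0.11) in knockout cells, with edgeR adjusted p of 0.397 and 1.00 unpaired and 0.0430 and 0.752 paired. The paired call in control cells was lost in all 6 fits with 1 pair left out. Cyp51, the demethylase of lanosterol, was higher with CRE in all 6 pairs, by little, with a log2 fold change of 0.08 (SE 0.10) over both genotypes. Akap9 overlaps it on the opposite strand and was counted at 75.6 to 113 CPM, so the Cyp51 values are open to the same doubt about strand. With CRE, Akap9 had log2 fold changes of 0.20 (SE 0.10) in control cells, -0.19 (SE 0.10) in knockout cells and 0.01 (SE 0.07) over both. Msmo1, the methyl oxidase, was at 139, 175 and 171 CPM in control cells with PBS and 209.5, 135 and 128 CPM with CRE, where the library numbered 1 stood far above the others. The knockout libraries had 139, 139.9 and 153 and 107, 112 and 158 CPM, and its log2 fold changes with CRE were -0.04 (SE 0.20) and -0.19 (SE 0.20). In control cells the same-number pairs gave 0.59, -0.38 and -0.42, so the small value there averages opposite signs. Over both genotypes the log2 fold changes of the others were 0.10 for the decarboxylating dehydrogenase Nsdhl, 0.09 for the keto reductase Hsd17b7, -0.02 for the desaturase Sc5d, -0.02 for the reductase Dhcr7 and -0.08 for Tm7sf2.

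None of the 4 genes that control SREBP2 passed either fit with CRE. Srebf2, which encodes SREBP2, ranged from 123 to 200.4 CPM and had log2 fold changes of 0.05 (SE 0.18) in control cells and -0.23 (SE 0.18) in knockout cells, where the groups did not overlap, by 183.8 against 183.5 CPM at the nearest. Without the knockout library with CRE numbered 3 the latter value was -0.09. Its escort Scap was the most even gene of all 29, at 96.3 to 114 CPM over the 12 libraries with a log2 fold change of 0.02 (SE 0.05). The retention protein gene Insig1 had log2 values of 0.02 (SE 0.17) in control cells and -0.12 (SE 0.17) in knockout cells, and Insig2 had -0.09 (SE 0.11) and 0.14 (SE 0.11). Insig1 is itself a target of SREBP2, and it ranged from 89.1 to 139 CPM.

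The efflux transporters were highest in the libraries numbered 1. Abcg1, which loads cholesterol onto lipoprotein particles and is abundant in macrophages (chr17:31057675-31117988, plus strand), was at 13.5, 3.20 and 3.20 CPM in control cells with PBS and 8.85, 2.90 and 3.10 CPM with CRE. Knockout cells were at 13.3, 4.29 and 4.11 CPM with PBS and 9.16, 3.09 and 3.62 CPM with CRE. The libraries numbered 1 were highest in all 4 groups, as were the leukocyte and alveolar macrophage markers. The log2 fold change with CRE was -0.42 (SE 0.74), -0.45 (SE 0.74) and -0.44 (SE 0.52) in control cells, in knockout cells and over both (edgeR adjusted p 0.954, 1.00 and 0.867). Leaving out the single control library with PBS numbered 1 turned the values in control cells and over both to 0.63 and 0.09, and leaving out the knockout library with PBS numbered 1 turned the knockout value to 0.33. Without all 4 libraries numbered 1 it was -0.09 (SE 0.20), -0.33 (SE 0.20) and -0.21 (SE 0.14) in the same order. These fits were unpaired, and leaving out a single library kept its same-number partner. All 6 pairs were lower with CRE, and the paired fit gave -0.27 (SE 0.15) in control cells and -0.40 (SE 0.15) in knockout cells (edgeR adjusted p 0.396 and 0.292). Abca1, which exports cholesterol to lipid-poor apolipoprotein, was at 20.9, 11.0 and 10.5 CPM in control cells with PBS and 20.99, 12.3 and 11.5 CPM with CRE, again highest in the libraries numbered 1. In knockout cells it was at 16.9, 15.5 and 11.9 CPM with PBS and 15.6, 12.7 and 11.8 CPM with CRE. Nr1h2, the LXR receptor found in most tissues, ranged from 53.2 to 65.2 CPM with a log2 fold change of -0.01 (SE 0.06).

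Loss of AhR in Sftpc-expressing cells was compared next, between Sftpc-Cre;AhR f/f and AhR f/f cells. None of the 29 genes passed an edgeR adjusted p of 0.05 with PBS (31 genes, 0.150% of all), with CRE (35 genes, 0.170%) or over both treatments (130 genes, 0.631%), and limma called none either. DESeq2 called none of the 29, against 1.18%, 0.844% and 2.53% of all genes. At an unadjusted p under 0.05 the counts were 2 of 29 with PBS (all genes, 8.37%), 0 with CRE (5.95%) and 1 over both (9.93%). None met the rule of the study, met by 4.10% of all genes with PBS and 3.42% with CRE. The groups did not overlap for 3 of 29 genes with PBS (Lss and Mvd lower, Srebf2 higher; all genes, 14.0%) and for none with CRE (11.0%). The synthesis enzymes had small values, mostly below 0: 16 of 18 were negative with PBS (median log2 fold change -0.12) and 12 of 18 with CRE (median -0.04). Over all genes the medians were 0.00 in both. Without the libraries numbered 1, the enzymes had 15 of 18 negative values with PBS and a median of -0.06, and 7 of 18 with CRE and a median of 0.03. The median of the 29 genes with PBS, -0.04, moved with each single library left out: it was -0.08, -0.02 and -0.10 without the control libraries with PBS numbered 1, 2 and 3, and 0.00, -0.07 and -0.11 without the knockout ones in the same order. The knockout library with PBS numbered 1 had the lowest AT2 marker sum of all, 4584 CPM against 7827 to 8796 CPM in control cells with PBS, and the part of these markers in the medians was not tested. The PBS and CRE libraries of a genotype with the same number deviated together, so these comparisons are not independent of each other, and the unpaired test over both treatments counted such libraries as independent.

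Lss, the lanosterol synthase (chr10:76531588-76557138, plus strand), was nearest to the threshold. It was at 68.1, 65.4 and 65.9 CPM in control cells with PBS and 50.0, 62.9 and 56.0 CPM in knockout cells with PBS, and these groups did not overlap. With CRE it was at 67.8, 71.5 and 61.1 and 54.2, 57.8 and 65.7 CPM, which overlapped. The log2 fold change was -0.24 (SE 0.10) with PBS and -0.21 (SE 0.07) over both treatments, with unadjusted p of 0.0348 and 0.0136 and edgeR adjusted p of 0.546 and 0.325. Without the libraries numbered 1 these values were -0.14 (SE 0.11) and -0.12 (SE 0.08), and without the knockout library with PBS numbered 1 alone -0.16 and -0.17. Pmvk had -0.23 (SE 0.10) with PBS (edgeR adjusted p 0.554) and -0.07 (SE 0.10) with CRE. Msmo1 had the largest value over both treatments, -0.25 (SE 0.14), and -0.32 (SE 0.20) with CRE, but the latter was -0.06 without the library of control cells with CRE numbered 1 and 0.04 (SE 0.15) without the libraries numbered 1. Without the same control library the value over both treatments was -0.12, and without the knockout library with CRE numbered 3 the value with CRE was -0.52. For Tm7sf2, a low gene that overlaps Vps51 on the same strand, the CPM were 4.36, 5.68 and 5.82 in control cells with PBS, 4.63, 5.48 and 5.23 with CRE, 5.29, 4.50 and 4.50 in knockout cells with PBS and 4.04, 5.40 and 3.76 with CRE. All 4 groups overlapped, and the log2 fold change between genotypes was -0.18 (SE 0.14).

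Fdft1 differed between genotypes by -0.34 (SE 0.25) with PBS and 0.20 (SE 0.25) with CRE on the log2 scale. With PBS the value ran from -0.16 without the knockout library numbered 1 to -0.71 without the knockout library numbered 3, and was -0.03 without the libraries numbered 1 of all groups. It was -0.22 without the control library numbered 1 and -0.23 without the knockout library numbered 2. With CRE it was 0.07 without the knockout library numbered 3, and 0.13 and 0.35 without the control libraries numbered 2 and 3. Srebf2 was at 172, 183 and 123 CPM in control cells with PBS and 184, 198 and 200.4 CPM in knockout cells with PBS, with no overlap, and at 167, 198 and 129.7 and 184, 181 and 132 CPM with CRE, with overlap. The control libraries numbered 3 were low in both treatments, and so was the knockout library with CRE numbered 3. The log2 fold change was 0.28 (SE 0.18) with PBS and 0.00 (SE 0.18) with CRE (edgeR adjusted p 0.755 and 1.00). Without the control library with PBS numbered 3 the value with PBS was 0.13. Npc1, in contrast to its difference with CRE, had genotype values of 0.00 (SE 0.11) and -0.01 (SE 0.11).

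The CRE response was also compared between the genotypes. No gene passed an edgeR adjusted p of 0.05 for this difference (0 of 20612, 0%), at an unadjusted p under 0.05 there were 763 genes (3.70%) and none of the 29, and DESeq2 called 23 genes (0.112%) with none of the 29. limma called 0 genes. The paired fit also passed 0 genes, and at an unadjusted p under 0.05 it held 4 of the 29, Npc2, Stard4, Ebp and Mvd (all genes, 9.09%). Npc2 had the smallest p there, with a difference of 0.22 (SE 0.05) and an edgeR adjusted p of 0.494. In the unpaired fit Fdft1 had the largest value, 0.55 (SE 0.36), and Npc1 one of -0.01 (SE 0.15), which stands close to 0. The Fdft1 value was 0.36 without the knockout library with PBS numbered 1 and 0.91 without that numbered 3. With all 12 libraries in that fit, the standard error of this difference over the 29 genes had a median of 0.17 and ran from 0.10 to 1.04 on the log2 scale.

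In knockout cells several synthesis genes were highest in the libraries numbered 3. The summed level of the 18 synthesis enzymes was 1682, 1831 and 1716 CPM in control cells with PBS and 1791, 1773 and 1731 CPM with CRE. For knockout cells the values were 1435, 1538 and 1872 CPM with PBS and 1545, 1636 and 1970.0 CPM with CRE, highest in the libraries numbered 3. Of these 18 enzymes, 11 lay above their own mean over all libraries in each knockout library numbered 3, against 14 in the control library with PBS numbered 2. Ebp and Dhcr7 were lowest in the libraries numbered 3 of both knockout groups. Hmgcs1 (chr13:119690379-119708260, plus strand) was at 196, 229 and 308 CPM in knockout cells with PBS and 226, 234 and 327 CPM with CRE, against 241, 260.2 and 239 and 264, 283 and 256 CPM in control cells. Insig1 had 98.7, 97.7 and 139 CPM and 89.5, 89.1 and 131 CPM in the knockout groups, again high only in the libraries numbered 3. Cyp51 and Mylip were also highest in the libraries numbered 3, at 162, 176 and 228 CPM and 21.8, 21.6 and 33.9 CPM with PBS and at 175, 187 and 240.3 CPM and 24.1, 22.3 and 34.1 CPM with CRE. The AT2 marker sums were also highest in these libraries, 8974 and 9412 CPM, and lowest in the knockout libraries numbered 1. The part of the AT2 markers in these values was not tested.

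**Figure D3:**
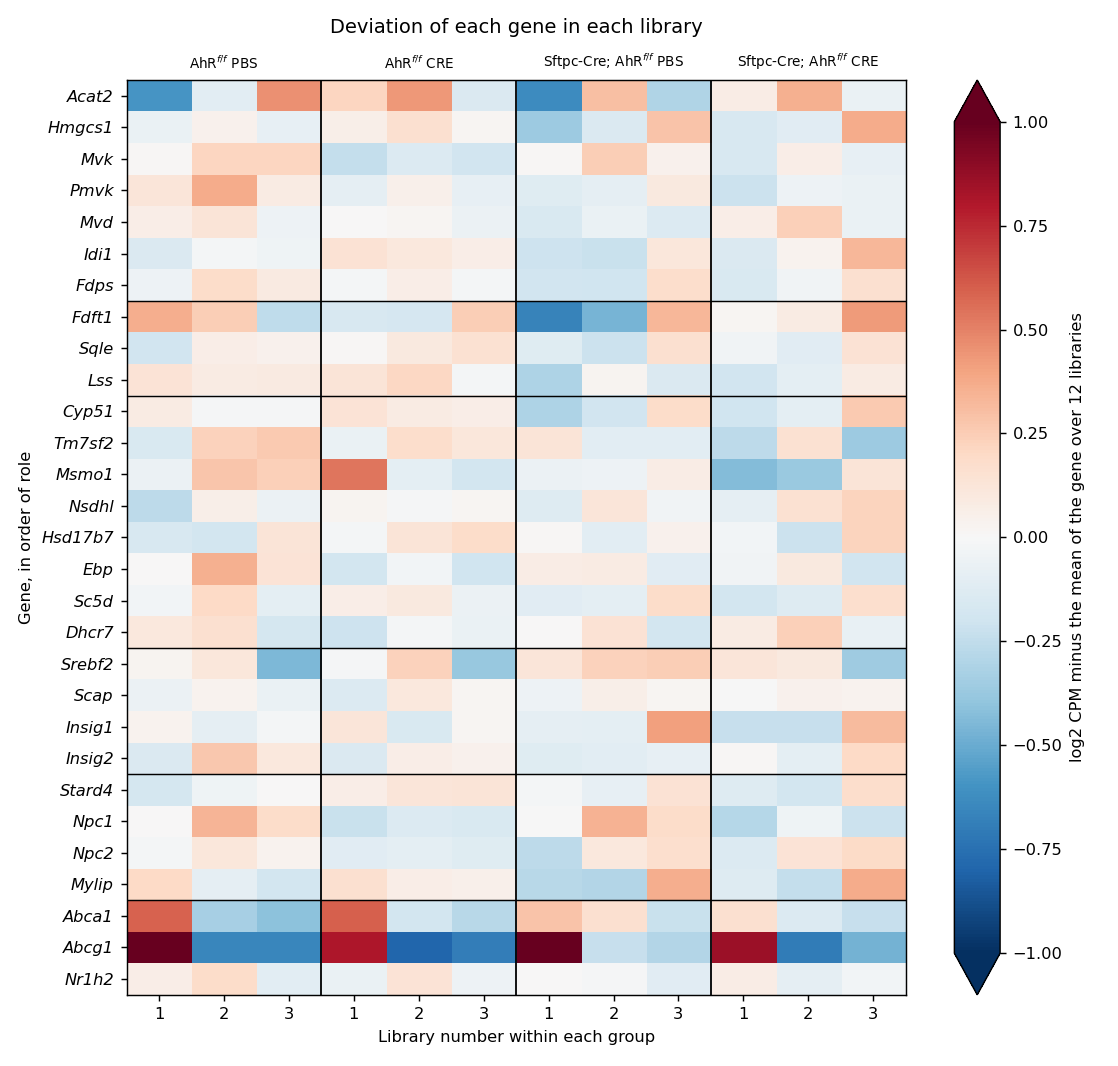
Deviation of each of the 29 genes (from top to bottom in order of role) in each of the 12 libraries (from left to right, numbered within group), as log2 CPM minus the mean of that gene over all libraries. The Sftpc-Cre;AhR f/f libraries numbered 3 are above the mean for Hmgcs1, Idi1, Fdps, Cyp51 and Insig1, and Abcg1 and Abca1 are above it in the libraries numbered 1, where colours are capped at 1 in either direction.

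Other genes of sterol handling were read from lists of 8 to 15 genes, and none of these 43 passed the unpaired edgeR test in any comparison, with 5 at an unadjusted p under 0.05 for CRE over both genotypes (all genes, 11.1%) and 2 between genotypes over both treatments (9.93%). DESeq2 called 1 of the 43 in each of these comparisons (all genes, 3.59% and 2.53%), and limma called none. The list of sterol storage and transfer had 13 of 15 negative values with CRE over both genotypes, with a median log2 fold change of -0.12, against -0.002 for all genes. In the paired fit over both genotypes 4 of its 15 genes were lower, where 6.59% of all genes passed in either direction: Soat1, which esterifies cholesterol (-0.27, SE 0.05, edgeR adjusted p 0.0193), the late endosomal sterol carrier Stard3 (-0.25, SE 0.04, 0.0158), the oxysterol-binding protein gene Osbpl2 (-0.17, SE 0.04, 0.0404) and the lysosomal membrane protein gene Scarb2 (-0.12, SE 0.02, 0.0279). These were named after their values were seen, as was Ch25h, the cholesterol 25-hydroxylase, which was higher in the paired fit (0.65, SE 0.12, edgeR adjusted p 0.0269) at 1.07 to 5.23 CPM. Fits with pairs left out are not given for these genes. The AT1 marker sum was also lower with CRE in all 6 pairs (ratio 0.706 to 0.761), as were the other marker sums except that of AT2 cells. Lipa, like the leukocyte markers, was highest in the libraries numbered 1 of every group. The part of these markers in the list of sterol storage and transfer was not tested. Stard10, a phospholipid transfer gene of the same list, had the largest value among those without overlap, -0.40 (SE 0.17) between genotypes with PBS (edgeR adjusted p 0.566). In the other lists those were the SREBP protease gene Mbtps2 (0.26, SE 0.08 with CRE in knockout cells, edgeR adjusted p 0.518), the dolichol synthesis gene Dhdds (0.25, SE 0.19 with CRE in knockout cells, 0.959) and the nuclear receptor corepressor gene Ncor1 (0.15, SE 0.08 with CRE in control cells, 0.591). For Dhdds the knockout library with PBS numbered 3, at 28.5 CPM, lay far below those numbered 1 and 2, at 41.4 and 42.6 CPM. Median log2 fold changes with CRE over both genotypes were 0.01 for SREBP processing, 0.03 for the non-sterol branches and 0.02 for oxysterol enzymes and LXR partners.

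Promoters of Mvk, Ebp and Idi1, which passed the paired fit, and of Hmgcs1, higher in all 6 pairs, are printed with the motifs found in them. RefSeq promoters (GRCm38.p6, 250 bases before to 50 after each start) matched 23 of the 29 genes, with 29 promoters because some genes have several. Those of Stard4, Abcg1, Fdps, Npc1, Sqle and Fdft1 were not analysed here. The windows were searched on both strands for ATTGG, the inverted CCAAT box that NF-Y binds, for CACNCCAC, a core of sterol response elements, and for GCGTG, the core that AhR binds with ARNT. ATTGG occurred in 37.4% of all 32851 promoters and in 19 of the 29 promoters of these genes, CACNCCAC in 6.24% of all and in 3 (Acat2, Hmgcs1 and Insig1), and GCGTG in 32.4% of all and in 17. The median GC content was 62.3% in the promoters of these genes and 52.7% in all, which by itself changes how often such letters occur. In the sequences, 5′ to 3′ on the strand of the gene, capitals mark ATTGG or CCAAT and, in Hmgcs1, also the match to CACNCCAC, with no overlap between them. A match describes letters and not a bound site.
Mvk promoter (chr5:114444019-114444318, plus strand): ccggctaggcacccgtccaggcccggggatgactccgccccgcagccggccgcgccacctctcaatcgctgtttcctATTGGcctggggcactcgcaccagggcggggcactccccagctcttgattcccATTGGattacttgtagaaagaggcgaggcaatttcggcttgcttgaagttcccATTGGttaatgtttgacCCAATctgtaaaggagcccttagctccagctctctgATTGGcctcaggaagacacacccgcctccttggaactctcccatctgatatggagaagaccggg
Idi1 promoter (chr13:8885356-8885655, plus strand): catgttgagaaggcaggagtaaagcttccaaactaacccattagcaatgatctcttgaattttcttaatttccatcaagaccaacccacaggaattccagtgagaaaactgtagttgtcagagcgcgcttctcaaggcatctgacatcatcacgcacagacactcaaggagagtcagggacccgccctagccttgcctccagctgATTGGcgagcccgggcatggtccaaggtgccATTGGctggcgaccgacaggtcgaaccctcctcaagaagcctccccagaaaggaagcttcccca
Ebp promoter (chrX:8193463-8193762, minus strand): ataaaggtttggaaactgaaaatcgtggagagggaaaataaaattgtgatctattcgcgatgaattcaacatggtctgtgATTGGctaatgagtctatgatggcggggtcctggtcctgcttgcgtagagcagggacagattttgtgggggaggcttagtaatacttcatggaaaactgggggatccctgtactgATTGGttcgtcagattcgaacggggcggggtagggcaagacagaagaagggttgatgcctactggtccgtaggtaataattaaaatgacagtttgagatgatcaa
Hmgcs1 promoter (chr13:119690101-119690400, plus strand): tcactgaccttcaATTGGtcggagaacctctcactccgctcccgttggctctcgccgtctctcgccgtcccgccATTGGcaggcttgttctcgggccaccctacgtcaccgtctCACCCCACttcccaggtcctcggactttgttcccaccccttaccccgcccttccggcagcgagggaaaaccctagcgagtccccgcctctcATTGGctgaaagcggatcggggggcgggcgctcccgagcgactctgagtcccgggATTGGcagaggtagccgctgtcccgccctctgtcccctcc
Mvk held 5 matches to ATTGG on either strand, Hmgcs1 4, and Idi1 and Ebp 2 each. Of these 4, only Idi1 held GCGTG, at 1 place.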

How the data were processed

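RNA was sequenced from 12 cultures of AT2 cells with a stranded mRNA kit. Per the submitters' notes, the authors aligned reads to GRCm38 with STAR 2.7.2b, annotated them with Partek and quantified them with Salmon. The deposited count per gene is a whole number, not normalised, and the deposited FPKM are the authors' values per transcript length. How strand was used in counting is not given in the sources used here.

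Counts of 20612 genes, kept by filterByExpr with a minimum count of 10, were scaled by TMM and fitted with edgeR 4.0.16 (R 4.3.3) as 4 group means over 12 libraries. Quasi-likelihood tests were adjusted by the Benjamini-Hochberg method at 0.05, over all genes. The fit was tested on simulated data. FPKM ranked levels between genes only. Gene positions came from GENCODE M21 and promoters from RefSeq.

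The library numbers were checked as pairs by correlating deviations from group means over 14543 genes. For CRE and PBS libraries of the same number r was 0.729, 0.418 and 0.651 in control cells and 0.589, 0.542 and 0.325 in knockout cells, and the number was taken to pair them. Between genotypes it was 0.420, 0.0416 and 0.106 with PBS and 0.413, -0.0286 and 0.0867 with CRE, for the libraries numbered 1 as high as in some pairs, and libraries of different genotypes were not taken as pairs. Only the block fit between genotypes, given as an alternative, matched them by number. Alternatives were DESeq2 1.42.0, limma 3.58.1 with and without the rule of the study, limma on log2 of FPKM plus 1, other scalings and filters, only the libraries compared, the replicate block and each library left out. Leaving out the libraries numbered 1, and pairs in the block, was chosen after seeing the data. Values in every library are given for genes past the test, the 3 largest fold changes in each of 6 comparisons and the highest and lowest FPKM, and Ebp, Idi1, Hmgcs1, Insig1, Cyp51, Mylip and Abca1 were added after their values were seen. From each other list the gene with the largest fold change among those without overlap was named. The genes and lists were chosen with earlier results of these data known.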

Additional observations from a re-analysis of the deposited data

Results flagged for a closer look

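With TMM scaling, in 3 of the 29 genes every same-number pair of one genotype differed with CRE in one direction and every pair of the other genotype in the opposite direction, as in 4.48% of all genes tested. For Mvd, the log2 CPM of the CRE library minus that of its PBS library was -0.06, -0.11 and -0.0037 in control cells and 0.21, 0.30 and 0.06 in knockout cells, and the fitted difference of the responses was 0.26 (SE 0.14). For Npc2 the pairs gave -0.10, -0.21 and -0.16 in control cells and 0.13, 0.03 and 0.03 in knockout cells, with a fitted difference of 0.21 (SE 0.16). For Abca1 they gave 0.01, 0.15 and 0.13 and -0.12, -0.29 and -0.01, with -0.23 (SE 0.43). None of these differences passed the unpaired interaction test of edgeR (adjusted p 1.00 for each, unadjusted p 0.0822, 0.225 and 0.609). With the library number as a block, the differences were 0.25 (SE 0.10) for Mvd, 0.22 (SE 0.05) for Npc2 and -0.24 (SE 0.12) for Abca1, with unadjusted p of 0.0439, 0.00363 and 0.0911 and edgeR adjusted p of 0.538, 0.494 and 0.598. Several single pairs lie very close to 0. Under scaling by library size alone Npc2 was higher in 2 and lower in 4 of the 6 pairs, so the opposite directions did not hold for it there.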

How the results depend on the processing

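With 1 library left out, the median log2 fold change of the 29 genes ran with CRE from -0.05 to 0.02 in control cells, from -0.03 to 0.06 in knockout cells and from -0.01 to 0.03 over both, and between genotypes from -0.11 to 0.00 with PBS, from -0.08 to 0.02 with CRE and from -0.08 to -0.01 over both. For CRE over both genotypes the unpaired edgeR test passed 0 of the 29, DESeq2 passed 2, scaling by library size alone 1, a filter at 1 CPM in 3 libraries 1, log2 of FPKM plus 1 with limma 1, and leaving out 1 library 0 to 1. The replicate block, which compares same-number pairs, passed 3 over both genotypes, 3 in control cells and 1 in knockout cells. In fits chosen after seeing the data, the block with the control pair numbered 1 left out passed 2 over both genotypes, 1 in control cells and 1 in knockout cells. With the control pair numbered 2 left out it passed 1 over both and 1 in knockout cells, and with any of the other 4 pairs, or all libraries numbered 1, left out 1 over both. In the other comparisons 0 of 29 passed under each of these settings.

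Among the genes with the 3 largest fold changes in each comparison, single values turned sign under an alternative in 4 cases. Abcg1 with CRE became 0.63 in control cells and 0.0898 over both genotypes without the control PBS library numbered 1, and 0.33 in knockout cells without the knockout PBS library numbered 1. Msmo1 between genotypes with CRE became 0.0354 without the libraries numbered 1. Over all single libraries left out, Abcg1 ran from -1.15 to 0.63 in control cells, from -1.11 to 0.33 in knockout cells and from -0.80 to 0.0898 over both. None of these passed a test, and the cause was not tested.

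Counts over all genes moved more. The block passed 748 genes in place of 48 in control cells with CRE, 439 in place of 54 in knockout cells and 1358 in place of 226 over both genotypes, and the DESeq2 counts there were 409, 254 and 740. Between genotypes DESeq2 passed 243 with PBS in place of 31, 174 with CRE in place of 35 and 522 in place of 130 over both. A block that shared the number across genotypes, whose libraries were not taken as pairs, gave 71, 55 and 223 in the same order. The rule of the study, which has no adjustment, passed 848, 696, 846 and 705 in the first 4 comparisons. With only the libraries compared the test passed 13 in knockout cells with CRE and 15 between genotypes with PBS. Leaving out 1 library gave 19 to 47 genes in control cells with CRE, 23 to 62 in knockout cells, 15 to 26 and 21 to 30 between genotypes with PBS and with CRE, 125 to 219 for CRE over both and 78 to 110 between genotypes over both. For the difference of responses, with 0 by the main test, it gave 0 to 2, DESeq2 23 and the rule of the study 475. Without the libraries numbered 1, an alternative chosen after seeing the data, 64 genes passed between genotypes over both treatments and 19 with CRE. The cause was not tested.

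In the unpaired fit of the 4 comparisons of single groups the standard errors of the 29 genes ran from 0.07 to 0.74 on the log2 scale, the highest for Abcg1.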
